A study of Sus scrofa with 4 samples.

Results

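The miR-15/16 family was described in exosomes, small membrane vesicles that carry microRNAs (miRNAs) through body fluids, from umbilical cord blood plasma of Yorkshire piglets sampled at birth. The family was taken by name as miR-15a, miR-15b, miR-16 (with any letter or copy number), miR-195, miR-424, miR-497 and miR-503, either strand, and 16 of the 664 deposited rows met that rule. Blood of the umbilical vein, which runs from the placenta to the fetus, and of the umbilical artery, which runs back, came from piglets with intrauterine growth restriction (IUGR) and from normal littermates. This gave 4 small RNA libraries, a normal and an IUGR one for each vessel, from EDTA plasma exosomes of pools of 3 piglets each. With 1 library for each vessel and condition, no difference between IUGR and normal has a replicate check. The sample labels name the vessel only, so normal (N) and IUGR (I) were taken from the lettering of the table columns.

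A miRNA guides its silencing complex to messenger RNAs mainly through its seed, the bases near its 5′ end, so miRNAs with the same seed share many targets. The miR-15/16 family restrains the cell cycle through cyclins and cyclin-dependent kinases, and miR-15a and miR-16 repress the survival factor BCL2. miR-16 is abundant in red cells and platelets, and its plasma level rises with haemolysis. miR-424 and miR-503 come from an X-linked cluster that is active in endothelium and myeloid cells, and miR-195 and miR-497 from another cluster, of which miR-195 promotes the exit of mouse heart muscle cells from the cell cycle after birth. The RefSeq gene table of the pig comes from a later assembly than the one the study used. It was taken here only for names and chromosomes, and distances between genes were not computed. In it MIR15A shares a chromosome with a copy of MIR16, MIR15B with the other copy, and MIR195 with MIR497. The deposited rows hold the pig miR-16 5p strand as a single sequence without a copy number, so its reads cannot be assigned to either locus.

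The 5p strands are shown first because their common seed defines the family. The sequences are those of the deposited rows, written 5′ to 3′ as DNA, with the seed (bases 2 to 8) in capitals.

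miR-15a: tAGCAGCAcataatggtttgt

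miR-15b: tAGCAGCAcatcatggtttac

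miR-16: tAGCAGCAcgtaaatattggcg

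miR-195: tAGCAGCAcagaaatattggca

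miR-497: cAGCAGCAcactgtggtttgt

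miR-424: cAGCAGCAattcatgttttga

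miR-503: tAGCAGCGggaacagtactgcag

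Of the first 21 positions, only 2 to 7 were the same in all 8 members with 5p reads. The miR-503 seed differed from the others at 1 base. Outside the seed miR-15a and miR-15b differed at 3 of 21 positions, miR-16 and miR-195 at 3 of 22, and miR-16 and miR-497 at 10 of 21. The eighth 5p member is a row named after the platypus miR-16c, which has the common seed and differed from miR-16 at 3 of 21 positions. The seed AGCAGCA stood at bases 2 to 8 in 13 of 581 rows outside the predicted candidates, and none of the 83 predicted candidates (rows whose names start with PC-) had it or the miR-503 seed. Besides 10 member rows, these 13 held 3 rows named after the platypus miR-15c, which the naming rule leaves out. The 3p strands come from the opposite arm of each hairpin and have other seeds. They are shown because miR-15b-3p was more abundant than miR-424 in the normal libraries.

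miR-15b-3p: tGAATCATtatttgctgctct

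miR-16-2-3p: aCCAATATtattgtgctgcttt

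miR-424-3p: cAAAACGTgaggcgctgctat

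Levels are given as percent of the reads outside the predicted candidates, which numbered 35317 in the normal vein, 7175 in the IUGR vein, 7527 in the normal artery and 12327 in the IUGR artery. The predicted candidates took 13.2, 55.8, 45.3 and 38.8% of all reads in that order. Exact 95% binomial intervals are given for shares and exact conditional intervals for ratios. All of them cover only counting error and no variation between piglets or libraries. PCR copies could not be told from separate molecules, so the counting error itself may be larger than shown. Red-cell miRNAs (miR-451, miR-144 and miR-486) took 44.8% in the normal vein, 49.3% in the IUGR vein, 40.2% in the normal artery and 9.91% in the IUGR artery. Liver miRNAs (miR-122, miR-192 and miR-194) took 0.176, 2.33, 2.32 and 28.6%. Platelet and myeloid miRNAs took 5.44, 2.49, 3.14 and 1.27%, lymphoid ones 0.841, 0.237, 0.465 and 0.0973%, and endothelial miR-126 0.657, 1.67, 0.810 and 2.43%. Smooth muscle miRNAs took 1.55, 4.26, 1.28 and 2.26%, and skeletal muscle ones 0.305, 0.311, 0.319 and 0.104%. Fewer vesicles from a cell type and less miRNA per vesicle cannot be told apart here.

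The family as a whole, both strands, took 4.52% of reads in the normal vein (interval 4.31 to 4.75%), 3.50% in the IUGR vein (3.09 to 3.95%), 5.47% in the normal artery (4.97 to 6.01%) and 1.57% in the IUGR artery (1.35 to 1.80%). The 2 normal libraries stood highest, IUGR vein below them and IUGR artery lowest, with no overlap between the intervals of these 4 libraries. Most of these reads came from miR-16, miR-15a and miR-15b.

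miR-16, the member most often followed in plasma, had 569 reads (1.61%) in the normal vein, 90 (1.25%) in the IUGR vein, 102.5 (1.36%) in the normal artery and 97 (0.787%) in the IUGR artery, where a fraction of a read is one shared with another row. The intervals of the first 3 overlapped, and that of IUGR artery lay below them. miR-15a had 458 reads (1.30%) in the normal vein and 83 (1.16%) in the IUGR vein. In artery miR-15a had 177 reads (2.35%) in the normal and 49 (0.398%) in the IUGR library. It was highest in normal artery and lowest in IUGR artery, and the vein libraries overlapped. miR-15b took 0.968% of reads in the normal vein and 0.571% (41 reads) in the IUGR vein. In artery miR-15b took 1.16% (87 reads) in the normal and 0.0892% (11 reads) in the IUGR library. The lowest share was again that of IUGR artery, with IUGR vein between it and both normal libraries.

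**Figure D1:**
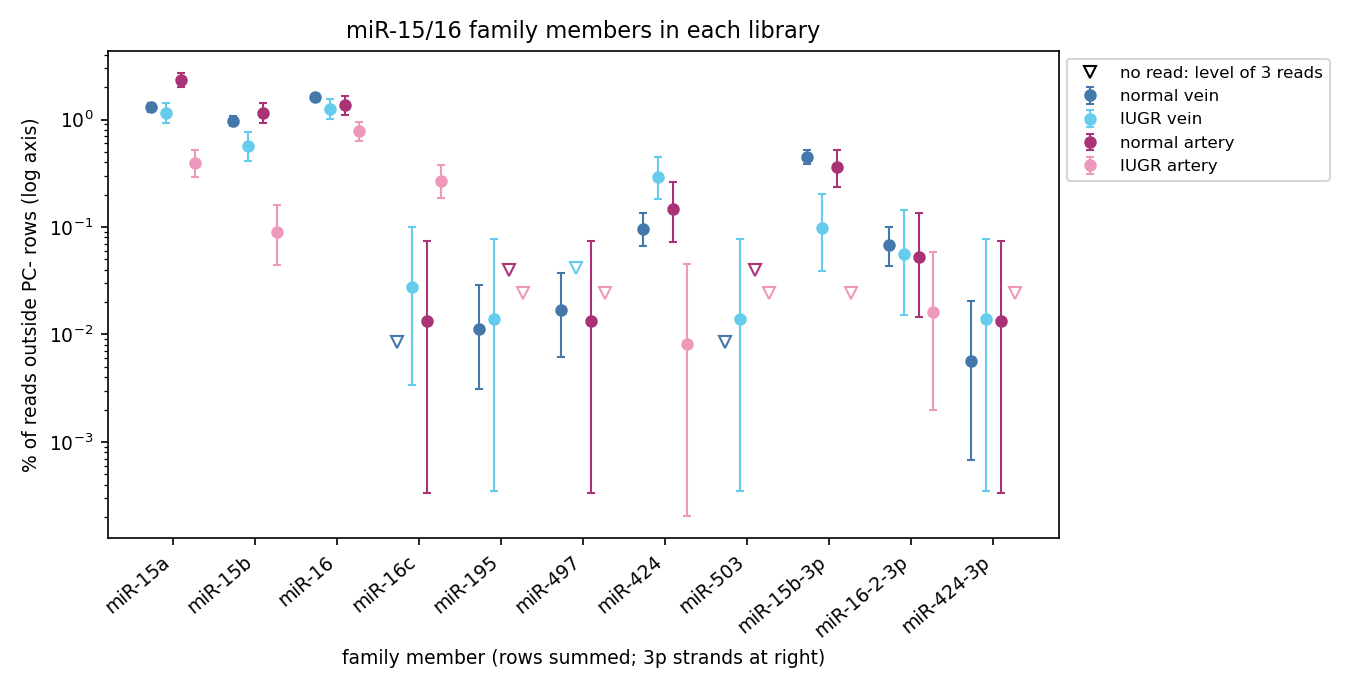
Percent of reads outside the predicted candidates (log axis) for each family member in the 4 libraries, with points for shares, bars for exact 95% binomial intervals and open triangles at the level of 3 reads where no read was seen. miR-15a, miR-15b and miR-16 lie between 0.0892 and 2.35%, and the IUGR artery point is the lowest of the 4 for each of them but the highest for miR-16c.

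The remaining members were sparse. miR-424 had 34 reads in the normal vein (0.0963%), 21 in the IUGR vein (0.293%), 11 in the normal artery (0.146%) and 1 in the IUGR artery (0.00811%). Its reads lie in 3 rows, 2 of which carry the same sequence under goat and bat names and split their reads equally, so they count as 1 miRNA here. miR-195 had 4 and 1 reads in the normal and IUGR vein and none in artery. miR-497 had 6 reads in the normal vein, 1 in the normal artery and none in either IUGR library. miR-503 had 1 read, in IUGR vein, split between its pig and mouse names, and none in the other libraries. A count of 0 allows up to 3 reads, or 0.00849% in the normal vein, 0.0418% in the IUGR vein, 0.0399% in the normal artery and 0.0243% in the IUGR artery. The 0.0113% of miR-195 and 0.0170% of miR-497 in normal vein lie below the limits of the other 3 libraries, so a difference in these members was not detectable at this depth.

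Within the 5p strands the mix of members differed between libraries. miR-16 made up 40.3% of the 1413 family 5p reads in the normal vein (37.7 to 42.9%), 37.7% of 239 in the IUGR vein (31.5 to 44.1%), 27.0% of 379.5 in the normal artery (22.5 to 31.6%) and 50.8% in the IUGR artery (43.5 to 58.1%). miR-15a made up 32.4, 34.7, 46.6 and 25.7% in the same order. miR-15b made up 24.2, 17.2, 22.9 and 5.76%. Thus miR-15a led in normal artery and miR-16 in IUGR artery, while the order of these members in the vein libraries was the same.

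The number of miR-15a reads for each miR-15b read was 1.34 in the normal vein (1.16 to 1.55), 2.02 in the IUGR vein (1.38 to 3.02), 2.03 in the normal artery (1.57 to 2.66) and 4.45 in the IUGR artery (2.29 to 9.50). This ratio needs no library total. miR-16 reads for each miR-15b read numbered 1.66, 2.20, 1.18 and 8.82, the last with an interval of 4.72 to 18.2 that lay above the other 3.

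**Figure D2:**
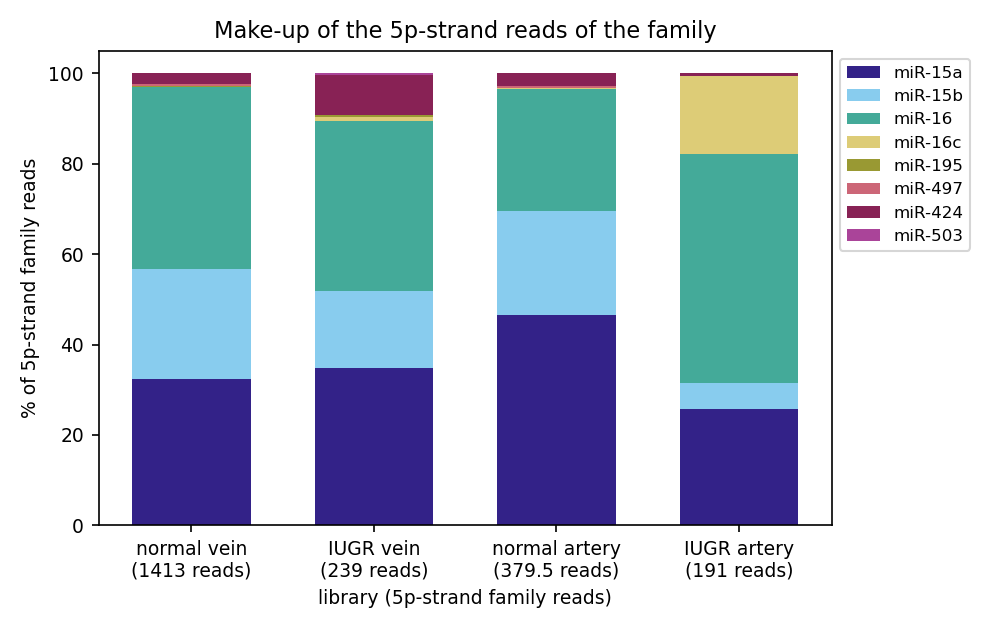
Share of each member among the 5p-strand reads of the family in the 4 libraries, as stacked bars that sum to 100%, with the number of reads under each bar. In IUGR artery miR-16 takes 50.8% and miR-15b 5.76%, and miR-16c appears with 17.3%.

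Since red-cell miRNAs differed between the libraries, members were also set against miR-451, the leading red-cell miRNA, in the same library. The family had 12.6 reads per 100 reads of miR-451 in the normal vein (12.0 to 13.3), 8.09 in the IUGR vein (7.08 to 9.20), 17.1 in the normal artery (15.4 to 19.0) and 18.1 in the IUGR artery (15.4 to 21.1). On this scale the artery libraries overlapped and IUGR vein was lowest. miR-16 had 4.49, 2.90, 4.26 and 9.08 reads per 100 of miR-451 in the same order, so that IUGR artery was highest (7.30 to 11.2). miR-15b had 2.70, 1.32, 3.61 and 1.03, and both IUGR libraries lay below both normal ones. These orders were read against miR-451 alone and may differ against another red-cell miRNA, since red-cell miRNAs differed in their own order. From normal to IUGR vein, miR-451 (all its rows) went from 35.9 to 43.3% of reads and the largest miR-486 row from 7.66 to 4.29%. In artery miR-451 went from 32.0 to 8.66% and the same miR-486 row from 4.54 to 0.454%. Neither miR-486 nor miR-144 was used as a scale. The part that red-cell content has in the family's shares was not tested.

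**Figure D3:**
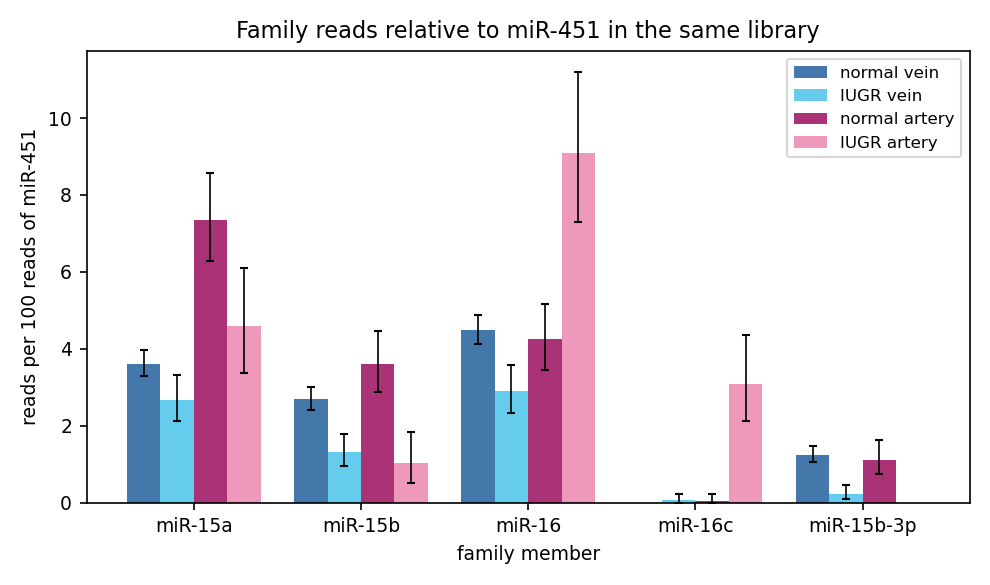
Reads of miR-15a, miR-15b, miR-16, miR-16c and miR-15b-3p per 100 reads of miR-451 in the same library, bars from 0, with exact conditional 95% intervals where reads were seen. miR-16 stands at 9.08 in IUGR artery against 2.90 to 4.49 in the other libraries, and miR-15b at 1.32 and 1.03 in the IUGR libraries against 2.70 and 3.61 in the normal ones.

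The first comparison set IUGR against normal piglets in exosomes of the umbilical vein. Relative to the reads outside the predicted candidates, miR-15a, miR-16 and miR-15b differed by less than 2-fold between the vein libraries. The family share was 1.29-fold lower in IUGR vein, with a log2 ratio (0.5 reads added to each library) of -0.37 and an interval of -0.57 to -0.18. miR-15a had a log2 ratio of -0.16 with an interval of -0.52 to 0.18, which includes 0, and 0.02 without miR-451 in the total. miR-16 stood at -0.35 (-0.70 to -0.04) and miR-15b at -0.75 (-1.27 to -0.29). miR-16-2-3p, with 4 against 24 reads, had -0.15 (-2.27 to 1.26).

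Past 2-fold in vein lay miR-15b-3p and miR-424. miR-15b-3p was 4.61-fold lower, with 7 reads (0.0976%) in the IUGR and 159 (0.450%) in the normal library. Its log2 ratio was -2.11 (-3.54 to -1.13). miR-424 was 3.04-fold higher in IUGR vein, at 0.293 against 0.0963%, with a log2 ratio of 1.62 (0.75 to 2.43).

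With at least 10 reads over both vein libraries, 7 of the 16 family rows entered the comparison. Of these, 1 row was at least 2-fold lower and 2, the equal miR-424 rows, at least 2-fold higher in IUGR vein. Over all 154 such rows, 22.1% were lower and 23.4% higher. The median log2 ratio was -0.16 over the 7 family rows and 0.08 over all rows. The vein values depend on the total that is used. Set against all reads, predicted candidates included, the family log2 ratio was -1.34, that of miR-15a -1.13, that of miR-16 -1.33 and that of miR-15b -1.72. Then 5 of the 7 family rows were at least 2-fold lower and 0 higher, where 47.4% of all 154 rows were lower and 6.49% higher. The median of all rows was -0.89. On the authors' normalized values the family ratio was -1.36, with the same counts and shares and a median of all rows of -0.92.

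In the umbilical artery the same question gave larger differences. miR-15a was 5.92-fold lower in IUGR artery, at 0.398 against 2.35%, with a log2 ratio of -2.55 (-3.05 to -2.10). miR-15b was 13.0-fold lower, at 0.0892 against 1.16%, with a log2 ratio of -3.64 (-4.75 to -2.79). miR-16 was 1.73-fold lower, with a log2 ratio of -0.79 (-1.20 to -0.37), so its interval lay above those of miR-15a and miR-15b. Without miR-451 in the total, the miR-16 ratio was -1.22.

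Of the minor members in artery, miR-15b-3p had 27 reads in normal artery and 0 in IUGR artery. Against the floor of 3 reads in the IUGR artery library, and with the 27 normal reads taken as exact, it was 14.7-fold lower. The exact conditional interval of its log2 ratio reached up to -3.48, which is a smaller difference than 14.7-fold. miR-424 had 1 read against 11, a log2 ratio of -3.65 with an interval of -9.60 to -1.39. miR-16c had 33 reads against 1, a log2 ratio of 3.77 with an interval of 1.75 to 9.68. Family reads as a whole were 3.49-fold lower in IUGR artery, with a log2 ratio of -1.80 (-2.06 to -1.56).

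With at least 10 reads over both artery libraries, 5 of the 16 family rows were compared, 3 of them at least 2-fold lower (miR-15a, miR-15b and miR-15b-3p) and 1 at least 2-fold higher (miR-16c). Over all 127 such rows, 40.2% were lower and 40.9% higher, so that 2-fold differences were common between these libraries. miR-424 had 12 reads over both artery libraries but is missing from this count, since each of its equal rows had fewer than 10. In vein both of these rows were counted. The median log2 ratio was -2.55 over the 5 family rows and 0.38 over all rows. Red-cell miRNAs were lower in the same library (9.91 against 40.2%) and liver miRNAs higher (28.6 against 2.32%).

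**Figure D4:**
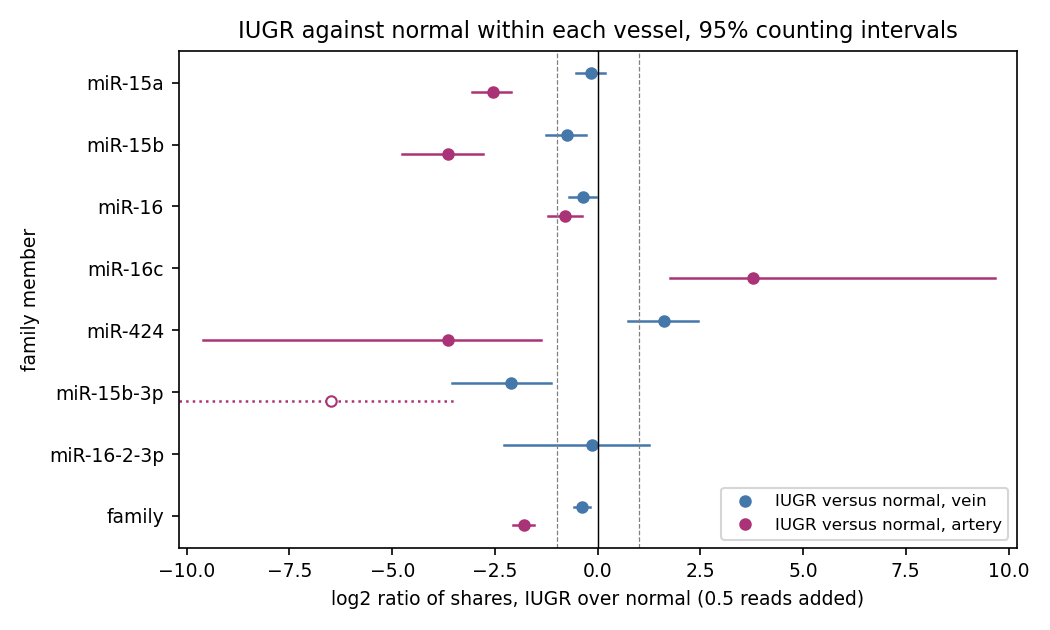
Log2 ratio of shares, IUGR over normal, for members with at least 10 reads over both libraries, in vein and in artery, with exact 95% conditional intervals as lines, dashed lines at 2-fold and an open point with a dotted line where IUGR artery had no read. miR-15a, miR-15b and miR-16 lie nearer to 0 in vein (-0.75 to -0.16) than in artery (-3.64 to -0.79), and miR-424 lies on opposite sides of 0.

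**Figure D5:**
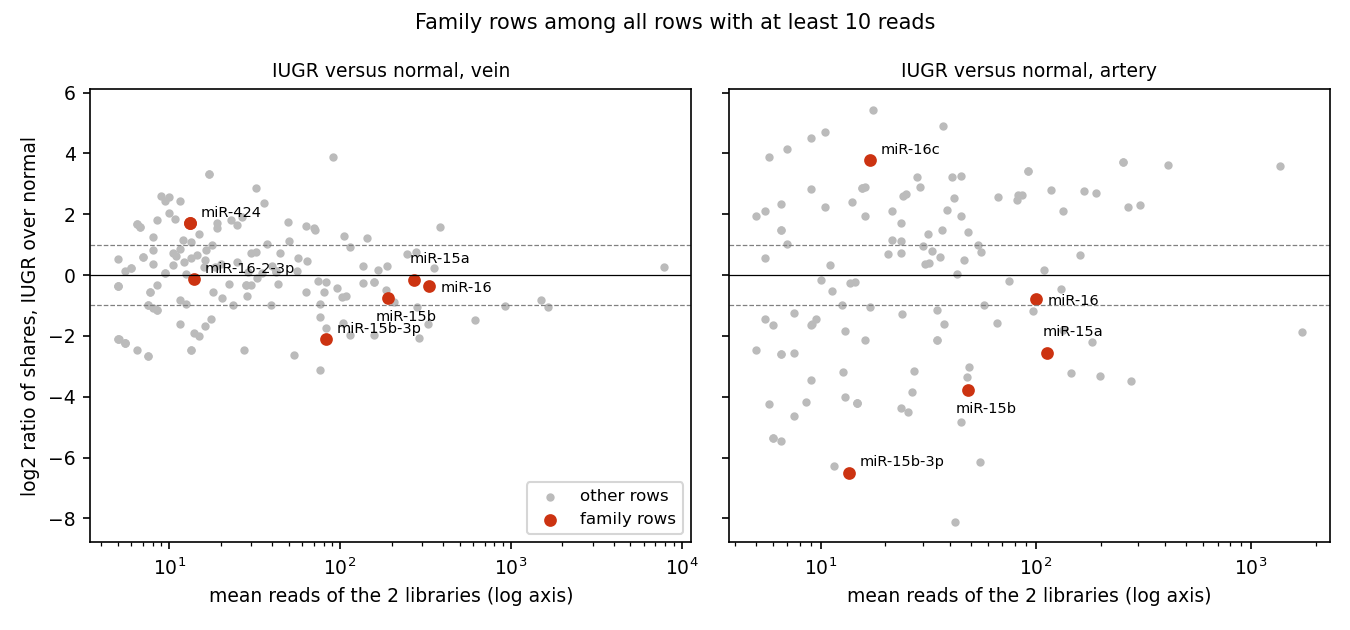
Log2 ratio of shares, IUGR over normal, against the mean reads of both libraries (log axis) for all rows outside the predicted candidates with at least 10 reads, 154 in vein and 127 in artery, with family rows in red and dashed lines at 2-fold. Family rows lie among the other rows in vein, and those of miR-15a, miR-15b and miR-15b-3p in the lower part in artery.

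The row named miR-16c stood out from miR-15a, miR-15b and miR-16 in being highest in IUGR artery. It had 0 reads in the normal vein, 2 in the IUGR vein, 1 in the normal artery and 33 in the IUGR artery, where it made up 17.3% of the family's 5p reads (12.2 to 23.4%). The platypus-named miR-15c rows, which have the same seed but lie outside the naming rule, had 1, 0, 0 and 14 reads in that order. Both names were thus found mainly in IUGR artery. Rows with platypus or opossum names outside the family numbered 21, and the miR-15c rows are among them. In the same library order they took 0.0212, 0.0279, 0.0731 and 1.18% of reads, the last with an interval of 0.993 to 1.38%. These shares therefore count the miR-15c reads again. Whether the reads of these rows come from pig miRNAs was not tested. Without miR-16c the 5p strands of the family had a log2 ratio of -1.97 between the artery libraries, and -1.70 with it.

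The 3p strand of a member was compared with its opposite strand within each library. Of the miR-15b reads, the 3p strand made up 31.7% of 501 in the normal vein (27.7 to 36.0%), 14.6% of 48 in the IUGR vein (6.07 to 27.8%), 23.7% of 114 in the normal artery (16.2 to 32.6%) and 0 of 11 in the IUGR artery. All of these intervals overlapped, but those of the vein libraries only just, at 27.7 against 27.8%. Overlap does not show equal shares, and the difference in vein was not tested. The 11 reads in IUGR artery set an upper bound of 28.5%, above the share of normal artery, so a difference in artery was not detectable at this depth. For miR-16 the 3p strand, named after the miR-16-2 hairpin, made up 4.05, 4.26, 3.76 and 2.02% of the reads of both strands. Reads of the opposite strand cannot be assigned to either miR-16 locus, so these shares do not compare the strands of a single hairpin. The intervals of these shares overlapped. miR-424-3p had 2, 1, 1 and 0 reads.

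miR-424 was set beside the other members of its X-linked cluster. miR-450b-5p had 9 reads in the normal vein (0.0255%), 11 in the IUGR vein (0.153%), 4 in the normal artery (0.0531%) and 0 in the IUGR artery. Its shares had the same order as those of miR-424, highest in IUGR vein and lowest in IUGR artery, although neighbouring values rest on few reads. miR-450a had 0.5, 1.5, 1 and 1 reads over its 2 rows, and miR-450c 0.5, 1.5, 0 and 0. miR-542-3p had 1 read, in normal artery. All 5 rows of these partners together took 0.0283, 0.195, 0.0797 and 0.00811%, from 10, 14, 6 and 1 reads.

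The last comparison set vein against artery. In normal piglets miR-15a was lower in vein, and in IUGR piglets miR-15a, miR-15b, miR-16 and miR-424 were higher in vein. miR-15a was lower in vein than in artery in normal piglets, with a log2 ratio of -0.86 (-1.11 to -0.60), and higher in vein in IUGR piglets, at 1.54 (1.01 to 2.08). miR-15b had -0.26 (-0.60 to 0.10) in normal and 2.63 (1.69 to 3.79) in IUGR piglets. miR-16 had 0.24 (-0.06 to 0.57) and 0.67 (0.24 to 1.10). These ratios, and those of miR-424 below, use the reads outside the predicted candidates. No other total was tried for them.

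miR-424 had a log2 vein to artery ratio of -0.65 (-1.62 to 0.53) in normal and 4.62 (2.54 to 10.5) in IUGR piglets, the latter from 21 reads against 1. In normal piglets, 0 of 7 compared family rows passed 2-fold in either direction, where 12.1% of all 157 rows were that much higher in vein and 29.3% lower. In IUGR piglets, 4 of 6 were higher (miR-15a, miR-15b and the equal miR-424 rows) and 1, miR-16c, lower, where 38.7 and 39.5% of all 124 rows were.

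Over all 4 libraries, 2 for each vessel, edgeR's quasi-likelihood test called 0 of 148 rows (0%) at a Benjamini-Hochberg adjusted p of 0.05, and 0 of 8 family rows. At an unadjusted p under 0.05 it gave 11 rows, none of the family. DESeq2 called 2 rows, both of miR-194, and gave 23 rows at an unadjusted p under 0.05, again none of the family. In edgeR's test of all 4 libraries the smallest adjusted p in the family was 0.575, for miR-16c at a log2 vein to artery ratio of -3.76, against 0.353 by DESeq2 and 0.438 with the pools as blocks. miR-15a stood at 0.15 with an adjusted p of 0.965 and miR-16 at 0.69 with 0.805, both by edgeR's test. Without the IUGR artery library the miR-15a ratio was -0.74, and without the normal artery library it was 1.74. The latter fit gave 4 family rows an unadjusted p under 0.05 (both equal miR-424 rows, miR-15b-3p and miR-16c), each with an adjusted p of 0.103 by edgeR's test. With the normal and the IUGR pool as blocks, the count of called rows was also 0, and the smallest adjusted p of any row was 0.148.

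The rows whose shares across the 4 libraries were most like those of miR-16 were sought among 48 rows outside the family with at least 10 reads in each library. Likeness was the root mean square difference of log2 shares after centring each row. The nearest were miR-23a (0.28), miR-140-3p (0.32), miR-99a (0.36), miR-214 (0.37) and miR-18a (0.39). Family members were not among the nearest on this measure, with miR-15a at 0.63 and miR-15b at 1.13, and 16 and 28 of the 48 rows lay closer to miR-16 than these. With 4 libraries that share pools this is a description only.

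miR-103 and miR-107, which regulate insulin sensitivity and lipid metabolism, carry the family's seed letters shifted by 1 base. The sequences are shown to make that shift visible, again with bases 2 to 8 in capitals.

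miR-103: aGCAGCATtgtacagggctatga

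miR-107: aGCAGCATtgtacagggctat

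miR-107 had 16.7 reads in the normal vein (0.0472%), 7.33 in the IUGR vein (0.102%), 12.7 in the normal artery (0.168%) and 60.3 in the IUGR artery (0.489%). Its share was highest in IUGR artery, where miR-15a, miR-15b and miR-16 were lowest. miR-103 had 22.2, 6.83, 13.7 and 11.3 reads, or 0.0628, 0.0952, 0.182 and 0.0919%. The deposited miR-107 row is a prefix of the miR-103 row, so reads of these miRNAs could be divided between the rows, and their separate values are uncertain.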

How the data were processed

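Exosomes were pelleted from cord plasma at 160000 × g after a 0.22 µm filter, and per the labels' protocols TruSeq small RNA libraries were read from one end over 36 bases. The submitters' processing notes name the build Sscrofa 10.2. Neither the aligner nor the counter is named; both are not given in the sources used.

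There are 4 tables of 2 libraries each. The raw columns deposited by the authors hold estimated counts, and their fractional values show reads divided between rows. Their normalized columns hold a signal equal to the deposited raw reads times 1 factor per library (1.90 to 5.89). Rows were matched between tables on name and sequence, and a row missing from one was set to 0 there. Members were summed over their rows, 3p and 5p strands apart.

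Ratios between 2 libraries added 0.5 reads to each, and 2-fold differences were counted over rows with at least 10 reads. edgeR 4.0.16 (limma 3.58.1, R 4.3.3, TMM) and, as an alternative, DESeq2 1.42.0 used counts rounded to whole numbers, over rows with at least 20 reads. Intervals (scipy 1.17.1) and edgeR's test were also run on simulated data. Labels do not say which column is which sample number, so the letters N and I served as blocks. Per the labels' protocol the vein and artery pools of a condition were read as the same piglets. Deviations of same-letter libraries correlated at r = 0.60 over 148 rows, which are not independent. The letters also mark the condition, so this correlation cannot tell shared piglets from a shared condition.

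Named miRNAs are all member rows, the X-linked partners, miR-103 and miR-107, the 5 rows nearest to miR-16 and the cell type lists. miR-15c and the platypus and opossum rows were added after their values were seen. Members and lists were chosen with earlier results of these data known.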

Additional observations from a re-analysis of the deposited data

Results flagged for a closer look

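The IUGR to normal difference of miR-424 had opposite signs in the vessels, with a log2 ratio of 1.62 in vein and -3.65 in artery. The difference between the vessels was not tested, since each ratio compares 1 library with 1 library, and IUGR artery had 1 read.

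The vein to artery ratio changed sign between normal and IUGR piglets for miR-15a (-0.86 and 1.54), miR-15b (-0.26 and 2.63) and miR-424 (-0.65 and 4.62, log2 scale). These differences were not tested either. They rest on the same 4 libraries, and the interval of the normal ratio included 0 for miR-15b and miR-424. The signs also depend on the total, here the reads outside the predicted candidates, and no other total was tried for these ratios. Predicted candidates took 13.2% of reads in normal vein and 45.3% in normal artery, so counting them would raise the normal ratios. They took 55.8% in IUGR vein and 38.8% in IUGR artery, so counting them would lower the IUGR ratios.

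The platypus-named miR-15c rows, outside the family as it was taken here, had 14 reads in IUGR artery and none in normal artery.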

How the results depend on the processing

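Family log2 ratios were negative under the 9 alternatives run, from -1.36 to -0.19 in vein and from -2.23 to -1.64 in artery. The scale of reads per 100 reads of miR-451 is not among these. On it the family was not lower in IUGR artery (18.1, against 17.1 in normal artery, intervals overlapping). It was lower in IUGR vein (8.09 against 12.6). In vein the ratio moved to -1.34 with all reads as the total, -1.36 on the authors' normalized values and -0.73 with median ratio scaling. The first 2 of these gave 5 family rows at least 2-fold lower and 0 higher (47.4 and 6.49% of all rows), and median ratio scaling 2 lower (31.2%). Without a filter on low reads 2 of 13 were lower and 5 higher (10.95 and 30.2%), and with at least 30 reads 0 of 4 were higher (21.5%). In artery the ratio became -2.23 without miR-451 in the total and -2.19 with median ratio scaling. Without a filter 7 of 10 family rows were lower (56.6% of all rows), and without platypus and opossum rows, an alternative chosen after seeing the data, 0 of 4 were higher (37.5%), since miR-16c is such a row. Over all alternatives the median of all rows lay between -0.92 and 0.71 in vein and between -1.39 and 0.87 in artery.

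Between vessels, DESeq2 called 2 rows, and every other fit called 0, among them the one with the replicate block. The miR-15a ratio was -0.16 without TMM. Leaving out each library in turn, it ranged from -0.74 to 1.74, miR-15b from -0.37 to 3.38 and miR-15b-3p from -0.66 to 8.74, and all 3 were negative without IUGR artery. Without normal vein miR-15a and miR-15b-3p were also negative. Without normal artery 66 rows had an unadjusted p under 0.05, 4 of them of the family, against 11 and 0 with all libraries. A single library left in a vessel is assumed to vary like the others. Why these values moved was not tested.

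IUGR vein and normal artery, the shallowest libraries outside the predicted candidates, limit the sparse members.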
